A study of Macaca mulatta with 16 samples.

Results

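The 8 rows described here are the ribosomal RNA (rRNA) rows of a gene-level count table from rhesus macaque (Macaca mulatta) heart and the rows of the spacers between them, out of 19425 rows in all. Of these 8, 6 were every row that the table annotates as rRNA, namely 18S, 28S, 5.8S and 5S of the nucleus and 12S and 16S of the mitochondrion. The other 2 were the long noncoding RNA rows that lie in the ribosomal DNA of chromosome 20, out of 1640 long noncoding RNA rows, and are called the sense spacer RNA and the antisense spacer RNA below. Their difference between the extraction methods was known when the rows were chosen, so it is given here as a description, with no p-value for any of the 8.

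The cardiac tissue came from 8 animals of a rhesus macaque model of right ventricular pressure overload, perfused with paraformaldehyde and kept as formalin-fixed, paraffin-embedded (FFPE) blocks. Which animals had been operated on, and their ages, are not given in these sources. From every animal 1 library was made with Method QE, a Qiagen AllPrep DNA/RNA FFPE extraction with added ethanol washes after deparaffinization, and 1 with Method BL, a CELLDATA RNAstorm FFPE extraction with a prolonged lysis, which gave 8 libraries per method. All 16 were total RNA libraries from which rRNA had been depleted with DNA probes and RNase H before sequencing, so that each rRNA row measures what was left after depletion. Gene counts totalled 14999179 to 25807216 in a library with Method BL and 19291593 to 25690001 with Method QE. Of 14 cardiomyocyte markers, 12 were in the table and they summed to 65351 to 169028 CPM in each library (CPM are the counts of a row per 1000000 counts of its library, after scaling of the libraries by trimmed mean, TMM), while MYH6 and TNNI3 were not listed by name. The names of 5 Method BL libraries end in B and of 3 in R, an unexplained difference that is carried along below.

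In a mammalian cell RNA polymerase I transcribes a long precursor in the nucleolus that holds 18S, 5.8S and 28S rRNA in this order, separated by internal transcribed spacers that are cut out and degraded as the ribosome matures. 5S rRNA is made elsewhere, by RNA polymerase III from separate gene clusters, and enters the large subunit with the proteins RPL5 and RPL11. The mitochondrion of a cardiomyocyte carries its own small (12S) and large (16S) rRNA, cut from a common transcript at the tRNAs that lie next to them.

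On the genome build of the files, Mmul_10, the chromosome 20 unit ran from 18S (ENSMMUG00000052127, chr20:29812145-29814013, plus strand, 1869 bases) to 28S (ENSMMUG00000054358, chr20:29816371-29821180, plus strand, 4810 bases). The sense spacer RNA (ENSMMUG00000063859, chr20:29814184-29816401, plus strand, 2218 bases) covered 857 bases of internal spacer 1, the whole 5.8S of 157 bases, all 1173 bases of internal spacer 2 and the first 31 bases of 28S. The antisense spacer RNA (ENSMMUG00000057648, chr20:29813857-29815296, minus strand, 1440 bases) lay opposite the last 157 bases of 18S, all 1027 bases of internal spacer 1, 5.8S and 99 bases of internal spacer 2, and shared 1113 positions with the sense row. The 3 junctions that the sense spacer RNA crosses are shown because they set which mature rRNAs its reads can touch, with 5.8S in capitals in the first 2 and the bases shared with 28S in capitals in the last.
Spacer 1 into 5.8S, chr20:29814981-29815060: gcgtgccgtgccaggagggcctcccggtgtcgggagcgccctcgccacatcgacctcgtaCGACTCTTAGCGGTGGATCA
5.8S into spacer 2, chr20:29815178-29815257: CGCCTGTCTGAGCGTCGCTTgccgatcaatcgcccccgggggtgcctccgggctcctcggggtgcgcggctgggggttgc
Spacer 2 into 28S, chr20:29816311-29816410: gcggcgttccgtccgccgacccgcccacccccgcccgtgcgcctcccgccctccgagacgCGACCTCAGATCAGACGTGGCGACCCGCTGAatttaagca

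The spacers were far richer in G and C than the rRNAs they separate. The GC content was 79.2% in internal spacer 1 and 82.8% in internal spacer 2, against 56.0% in 18S, 57.3% in 5.8S and 68.2% in 28S. As rows, the sense spacer RNA had 79.5% GC and the antisense spacer RNA 74.5%. The mitochondrial rRNAs lay at the other end, with 44.4% for 12S (ENSMMUG00000065373, chrM:608-1554, plus strand, 947 bases) and 42.6% for 16S (ENSMMUG00000065362, chrM:1624-3181, plus strand, 1558 bases).

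The table gave the 5.8S row a position outside the unit. The row merged 3 gene identifiers under 1 name and carried the position chr15:33919508-33919667 on the plus strand, a 160-base copy that shared 128 aligned bases with the 5.8S of the unit, with 24 mismatches and 13 gap bases, or 84.2% identity over the bases aligned without a gap. A search of Mmul_10 for copies of at least 95% identity over at least 80% of the length found the unit's 5.8S at 2 places, chromosome 20 itself and chr16:30672653-30672802, where 150 bases matched at 100%. The full sequences of the unit's 5.8S and of the copy that the table names are shown because they differ at so many positions, with bases that differ or have no partner in capitals.
5.8S of the unit, chr20:29815041-29815197: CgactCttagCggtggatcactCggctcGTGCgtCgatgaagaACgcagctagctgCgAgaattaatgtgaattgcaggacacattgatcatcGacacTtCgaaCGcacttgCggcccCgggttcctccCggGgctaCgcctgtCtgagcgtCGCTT
Copy on chromosome 15, chr15:33919508-33919667: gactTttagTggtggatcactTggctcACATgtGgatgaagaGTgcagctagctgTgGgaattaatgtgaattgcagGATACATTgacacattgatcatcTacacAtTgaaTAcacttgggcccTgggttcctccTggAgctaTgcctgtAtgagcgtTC

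Which copies carried the counts of the 5.8S row cannot be told apart from the table. The deposited values are estimated counts, in which a read that matches several rows is divided among them. The 5.8S row held a whole number (within 1e-06) in 0 of 16 libraries and the sense spacer RNA in 2 of 16, while the antisense spacer RNA was whole in all 16. Since the sense spacer row spans the 5.8S of the unit, reads of mature 5.8S could be counted in either of these rows, and their sum is given beside them. By the same search, 18S, 28S and both spacers had no copy of that length besides their own, whereas 12S had 11 and 16S 10, in nuclear chromosomes. Matches of any length at 95% identity or more, their own place included, numbered 10 for 28S, 3 for 18S, 2 for internal spacer 1 and 1 for internal spacer 2. Reads of 28S, 18S or internal spacer 1 could thus match other places as well.

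The sense spacer RNA separated the methods completely. With Method BL its level was 773, 1033 and 3454 CPM at the lowest, the median and the highest of 8 libraries, and with Method QE it was 53.3, 198 and 246. The lowest Method BL library thus stood above the highest Method QE library, and Method QE gave the lower level in 8 of 8 animals. The log2 fold change of Method QE over Method BL was −2.95 (SE 0.25, edgeR with animal as a block), 7.75-fold lower with Method QE and the lowest of the 14165 rows that passed the filter on low counts. Rows whose 2 groups of 8 did not overlap in this direction made up 0.127% of all rows tested, and rows lower in all 8 animals 3.04%. The mean difference within animals was −2.77 in the 5 animals with names in B and −3.27 in the 3 with names in R, on the log2 scale. As in any bulk sample, fewer cells of a type and less of an RNA per cell cannot be told apart in these levels.

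**Figure D1:**
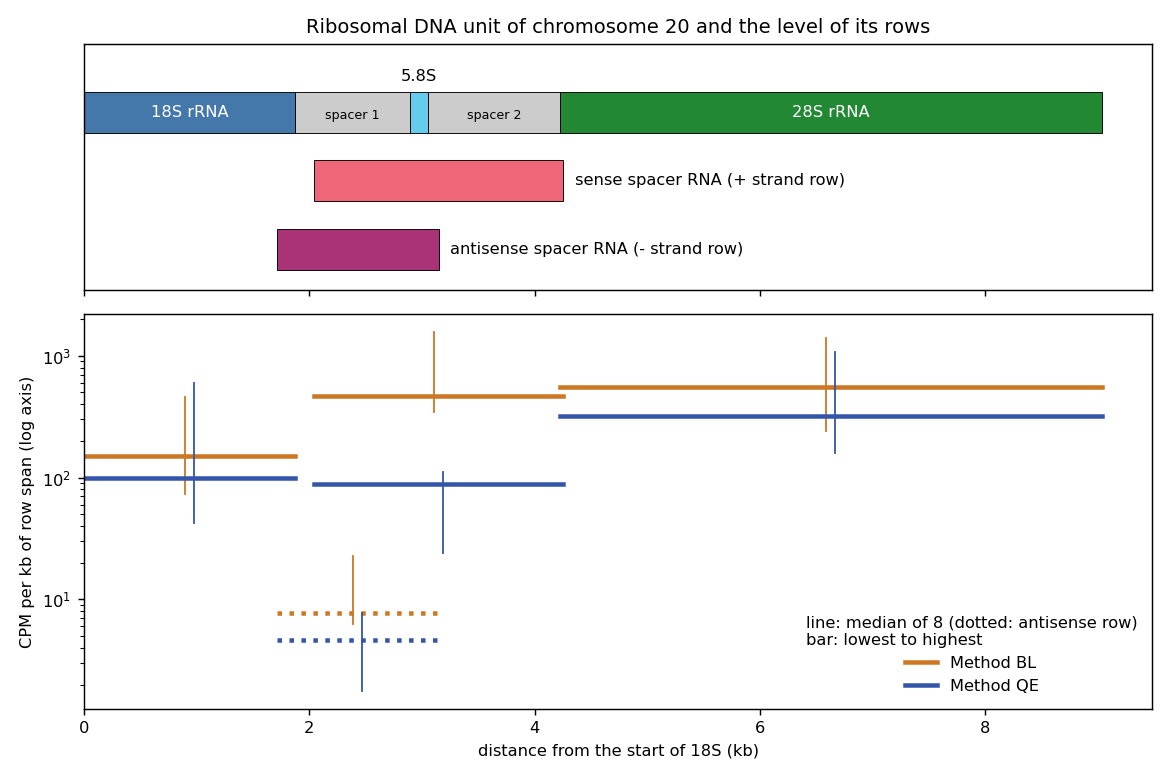
The ribosomal DNA unit of chromosome 20 to scale (top) and the level of its rows in CPM per kb of row span on a log axis (bottom), against the distance from the start of 18S in kb. Horizontal lines are medians of 8 libraries and vertical bars run from the lowest to the highest; the Method BL and Method QE bars stand clear of each other only for the sense spacer RNA, with medians of 466 and 89.2 CPM per kb.

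Per length, the sense spacer RNA with Method BL had a median above that of 18S and, in 5 of 8 libraries, a level above that of 28S. Its median level was 466 CPM per kb with Method BL, between 150 for 18S and 558 for 28S, and 89.2 CPM per kb with Method QE, where 18S had 99.8 and 28S 322. Within libraries the ratio of sense spacer to 28S level per kb had a median of 1.23 with Method BL (0.510 to 1.87) and 0.329 with Method QE (0.0300 to 0.694), above 1 in 5 of 8 and 0 of 8 libraries. The map of the unit shows this as a step from 18S up to the spacer with Method BL and a nearly level line with Method QE.

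The antisense spacer RNA was far less abundant than the sense row, and its groups overlapped. It held 9.12, 11.1 and 32.5 CPM with Method BL and 2.56, 6.73 and 11.1 CPM with Method QE. Method QE gave the lower level in 7 of 8 animals, all but 12075, with a log2 fold change of −1.13 (SE 0.32). The ratio of sense to antisense counts had a median of 102 with Method BL (62.6 to 108) and 27.1 with Method QE (6.36 to 76.2), with the lower ratio under Method QE in 8 of 8 animals. Whether the reads of the antisense row came from an RNA of that strand was not tested.

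The 5.8S row, the smallest rRNA of the precursor, moved the opposite way. It held 11.4, 45.8 and 223 CPM with Method BL and 66.1, 199 and 300 CPM with Method QE. The groups overlapped, yet Method QE gave the higher level in 8 of 8 animals, as in 2.16% of all rows tested (0.0706% had higher groups without overlap), and the log2 fold change was 1.55 (SE 0.31). Within animals the smallest difference was 0.14 (16116) and the largest 3.42 (rh2957) on the log2 scale.

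Added together, the 5.8S row and the sense spacer RNA were lower with Method QE. The sum was 908, 1158 and 3471 CPM with Method BL and 219, 357 and 536 CPM with Method QE, and these ranges did not overlap. The mean difference within animals was −1.85 on the log2 scale (SD 0.81, n = 8), lower in 8 of 8. Within this sum the 5.8S row took a median of 4.05% with Method BL (0.499% to 17.9%) and 47.2% with Method QE (21.5% to 84.6%).

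**Figure D2:**
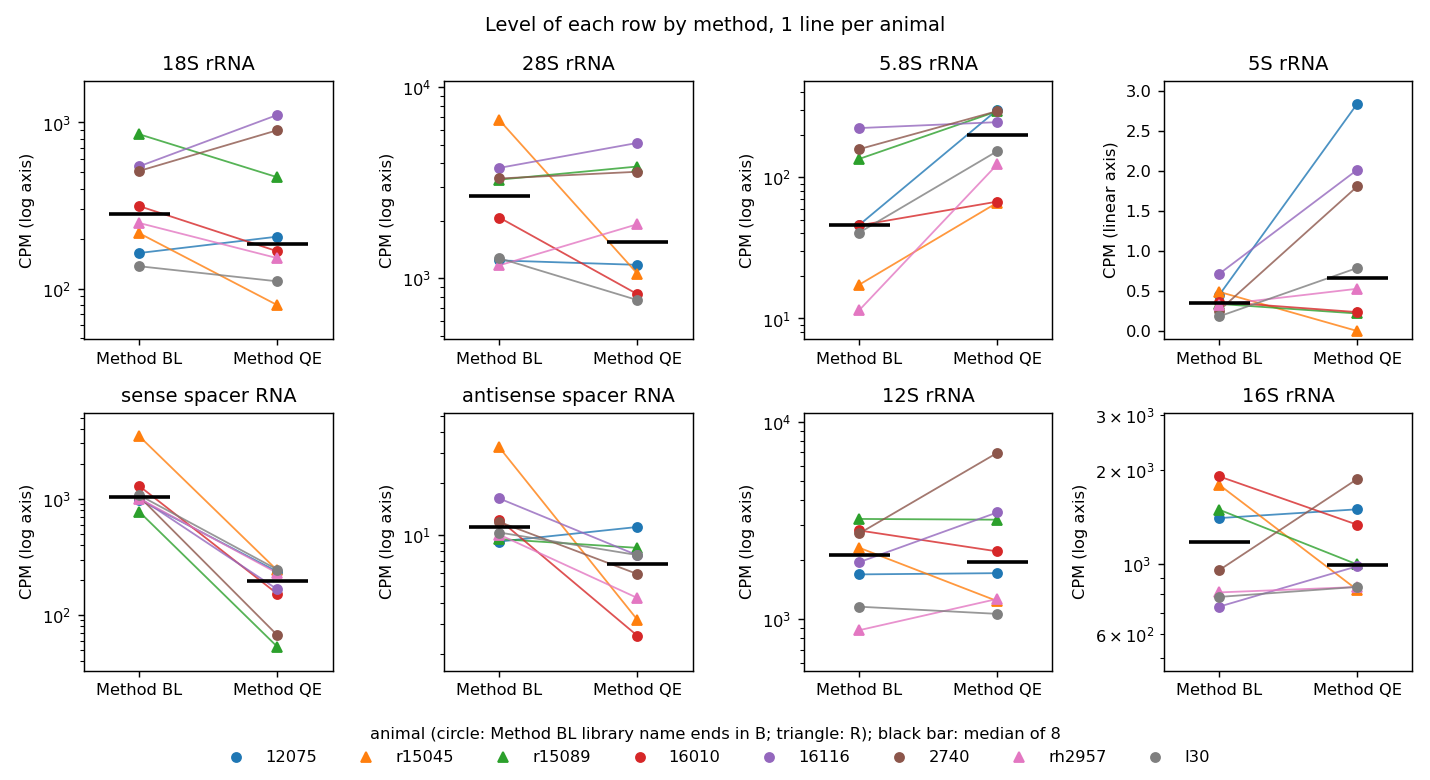
Level of each of the 8 rows with Method BL (left) and Method QE (right) in CPM, on a log axis except for 5S, with 1 line per animal (circles for the animals with names in B, triangles for R) and a black bar at the median of 8. All 8 lines fall for the sense spacer RNA and all 8 rise for 5.8S, while those of 18S, 28S, 12S and 16S cross.

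The large mature rRNAs, 18S of the small subunit and 28S of the large subunit, did not separate the methods. 18S held 136, 281 and 849 CPM with Method BL and 79.4, 186 and 1111 CPM with Method QE. Method QE gave the lower level in 5 of 8 animals, with a log2 fold change of −0.26 (SE 0.24), and its mean difference was 0.19 in the 5 animals with names in B and −0.9998 in the 3 with names in R. 28S, the most abundant nuclear row, held 1168, 2683 and 6749 CPM with Method BL and 769, 1547 and 5117 CPM with Method QE. It was higher in 4 animals and lower in 4, with a log2 fold change of −0.37 (SE 0.31) that became −0.08 without animal r15045.

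Other rows lie over these genes and could take reads from them. ENSMMUG00000062077, annotated as protein coding inside 28S on the same strand, had a median of 89.6 CPM with Method BL and 294 CPM with Method QE. Added to 28S it left the difference within animals at −0.27 (SD 1.14, n = 8) on the log2 scale. For 18S, the sum with the 2 rows over it, ENSMMUG00000055690 and ENSMMUG00000051300, differed by −0.21 (SD 0.93, n = 8), against −0.25 for 18S alone. ENSMMUG00000051300 lies on the minus strand and held whole counts in 16 of 16 libraries, so its counts show no division of reads.

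Within the unit, the counts were spread differently with each extraction. Of the counts in 18S, 5.8S, sense spacer and 28S together, the sense spacer RNA took a median of 33.8% with Method BL (15.3% to 42.5%) and 10.9% with Method QE (1.14% to 19.2%). 28S took 60.2% with Method BL and 73.7% with Method QE, higher in 8 of 8 animals, and 18S took 9.09% and 10.4%. These are shares of 1 sum, so a lower sense spacer share by itself raises the other shares together. The 28S level in CPM was higher with Method QE in 4 animals and lower in 4. Per 28S count there were 0.566 sense spacer counts with Method BL and 0.152 with Method QE, lower in 8 of 8.

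**Figure D3:**
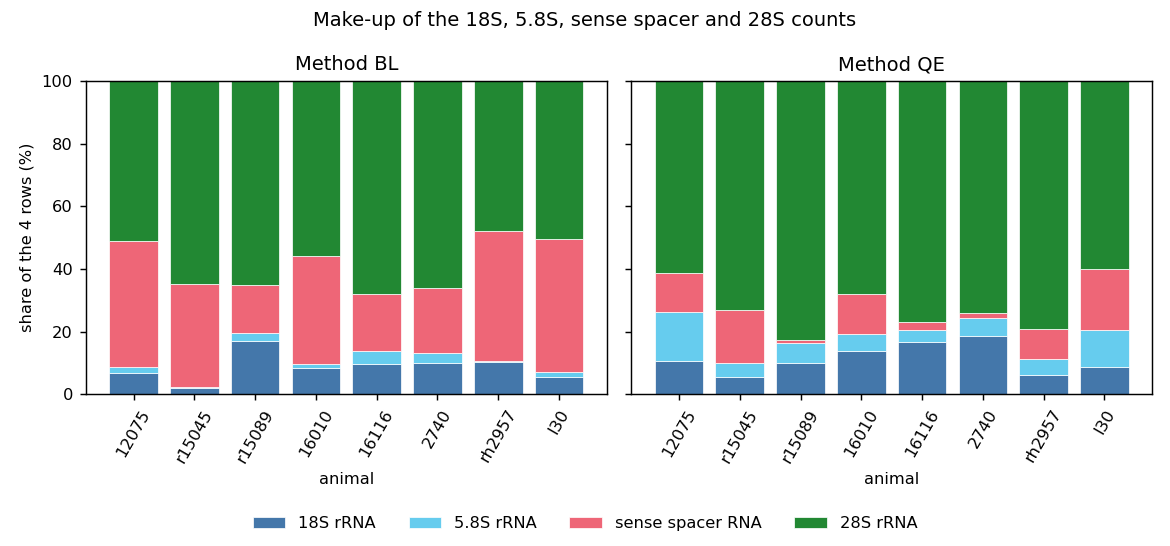
Share in percent of 18S, 5.8S, sense spacer and 28S in the sum of these 4 rows, 1 bar per animal, with Method BL at the left and Method QE at the right. The sense spacer share had a median of 33.8% with Method BL and 10.9% with Method QE. It was lowest in animal r15089 with Method QE, at 1.14%.

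The ratio of 28S to 18S counts had similar medians in both methods, and animal r15045 stood apart. The median was 6.80 with Method BL and 6.34 with Method QE, which per kb of row gave 2.64 and 2.47. The Method BL library of r15045 had a ratio of 31.4, far above the next highest of 9.35, and the Method QE library of this animal was also the highest of its group, at 13.3. That Method BL library held the highest 28S (6749 CPM), sense spacer (3454 CPM) and antisense spacer (32.5 CPM) of all 16, but only 215 CPM of 18S. Its total count was near the median of its group, while its mapped share was the lowest of the 16 printed in the paper's sequencing overview. Several other Method BL shares there do not match the mapped reads printed beside them, so this rank is uncertain. On leaving out any 1 animal, r15045 included, the sense spacer log2 fold change ranged from −3.09 to −2.81.

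5S rRNA was scarcely counted. Its row merged 140 gene identifiers and held 5 to 13 counts per library with Method BL and 0 to 44 with Method QE, or medians of 0.351 and 0.658 CPM. The library at 0 (r15045, Method QE) allows up to 3 counts, or 0.117 CPM by the library total, for counting error alone. The row did not pass the filter on low counts and was not fitted.

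The mitochondrial rRNAs did not separate the methods either. 12S held 881, 2126 and 3225 CPM with Method BL and 1066, 1961 and 6972 CPM with Method QE. The level was higher in 4 animals and lower in 4, with a log2 fold change of 0.17 (SE 0.21) that turned to −0.071 when libraries were scaled by their totals only. 16S held 731, 1180 and 1907 CPM with Method BL and 827, 991 and 1871 CPM with Method QE, with a log2 fold change of −0.07 (SE 0.19) that rose to 0.078 without animal r15045. Neither row thus had a direction that held under these settings.

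Set against the 13 protein genes of the same genome, which encode subunits of the respiratory chain, the mitochondrial rRNAs were lower with Method QE. The 13 genes summed to a median of 226139 CPM with Method BL and 384759 CPM with Method QE. For every 1000 of their counts there were 11.96 counts of 12S and 16S with Method BL (8.58 to 20.4) and 8.59 with Method QE (5.23 to 16.4), lower in 8 of 8 animals. The sum of 12S and 16S itself had medians of 3386 and 3378 CPM.

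**Figure D4:**
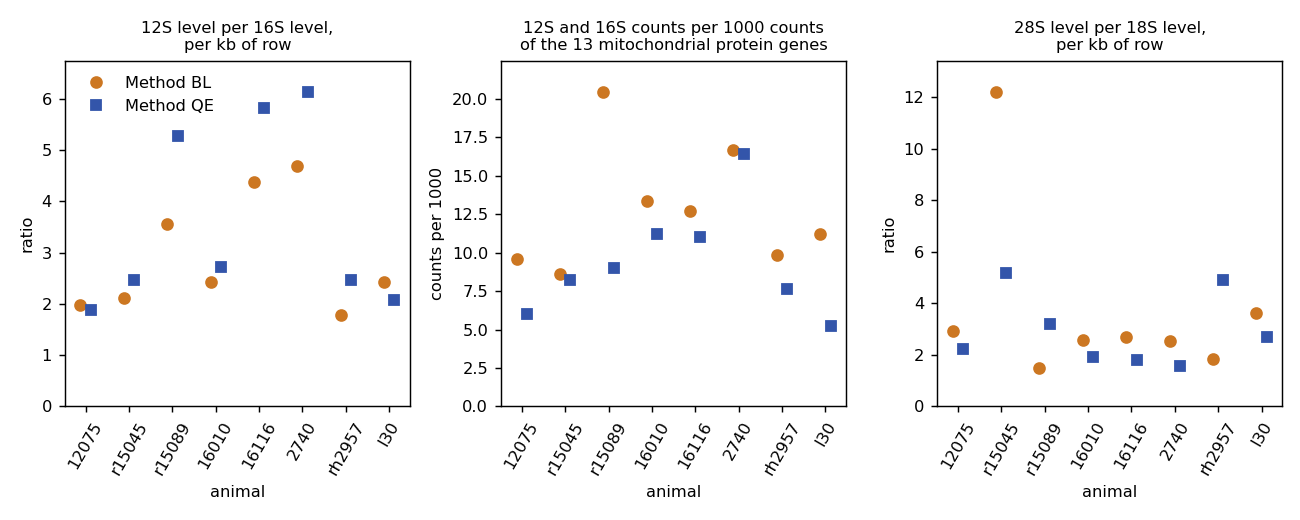
Ratio of 12S to 16S level per kb of row (left), 12S and 16S counts per 1000 counts of the 13 mitochondrial protein genes (middle) and ratio of 28S to 18S level per kb (right) in each animal, circles for Method BL and squares for Method QE. Animals r15089, 16116 and 2740 had the highest 12S to 16S ratios with both methods, and r15045 had the highest 28S to 18S ratio with both, at 12.2 and 5.18.

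The balance of 12S and 16S was highest in the same animals with both methods. Per count, 12S to 16S had a median of 1.48 with Method BL and 1.58 with Method QE. The highest 3 ratios belonged to animals 2740, 16116 and r15089 with both methods, at 2.85, 2.66 and 2.16 with Method BL and 3.73, 3.54 and 3.20 with Method QE, where the next animal had 1.48 and 1.65. The same 3 animals, singled out after their values were seen, also held the highest 3 levels of 18S with both methods, from 511 to 849 CPM with Method BL and from 468 to 1111 CPM with Method QE, where the next animal had 313 and 205. Among the other animals the order of the 12S to 16S ratios differed between the methods. In the paper's sequencing overview, animals 2740, 16116 and r15089 had the lowest mapped shares of the Method QE libraries. Several Method BL shares there, those of 2740 and 16116 among them, do not match the mapped reads printed beside them. The Method BL shares are therefore not compared. The part of mapping in these values was not tested.

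Of the 7 rows fitted, 2 passed an adjusted p of 0.05 between the methods, 5.8S upward and the sense spacer RNA downward, where 2.14% of all 14165 rows did (1.28% lower, 0.854% higher, and 4.23% lower among 520 long noncoding RNA rows). The rows were chosen on this contrast, so nothing is read from that count. The 5.8S row no longer passed without animal r15089 (log2 fold change 1.63), 2740 (1.66) or I30 (1.495), and the antisense spacer RNA passed as well when libraries were scaled by their totals only (−1.39).

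Differences between animals were not used in the choice. In the same edgeR fit, 5 of the 7 rows differed between animals at an adjusted p under 0.05, against 31.5% of all rows tested. 18S led with F = 11.4 (adjusted p = 0.00174), followed by 5.8S with F = 6.84 (adjusted p = 0.0103) and 12S with F = 6.74 (adjusted p = 0.0108). The sense spacer RNA had F = 4.15 (adjusted p = 0.0436) and 28S F = 4.11 (adjusted p = 0.0448) by edgeR. The sense spacer call was lost without animal r15045 (adjusted p = 0.177), r15089 (0.107) or 16010 (0.0569), and the 28S call without 12075, r15089, 16010, 16116, 2740 or I30, with edgeR adjusted p from 0.0561 to 0.110. 16S (adjusted p = 0.159) and the antisense spacer RNA (adjusted p = 0.657) did not pass by edgeR, though 16S did without animal r15045 (adjusted p = 0.0472).

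Whether both extractions ordered the animals alike was asked for each of the 8 rows. Pearson's r of log2 CPM between the methods was highest for 18S, at 0.79 (two-sided exact permutation p = 0.0247, 0.198 adjusted over 8 rows; Spearman's rho 0.74, p = 0.0458, adjusted 0.222; r 0.85 without the 2 animals farthest from the median). For 5.8S r was 0.69, for 12S 0.65, for the sense spacer RNA 0.43, for 28S 0.38, for 16S 0.18, for 5S 0.02 and for the antisense spacer RNA −0.51. None of the 8 passed after adjustment, by r or by rho. Over all rows tested the median r was 0.50 (quartiles 0.21 and 0.73), and the sense spacer RNA, 28S, 16S, 5S and the antisense spacer RNA lay below this middle. For 28S that place rested on animal r15045: r was 0.78 without it, 0.89 without the 2 farthest animals and 0.62 with library totals.

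The rows were then compared with each other over the animals, in 9 relations of log2 CPM averaged over both methods. Only some of these relations join rows of a common precursor. 18S and 28S had r = 0.81 (two-sided exact permutation p = 0.0274, adjusted 0.247; rho 0.81, p = 0.0218, adjusted 0.196; r 0.62 without the 2 farthest animals). The relation was 0.90 in the Method QE libraries alone (adjusted p = 0.0438, exact permutation test), 0.51 in the Method BL libraries alone, and 0.99 without animal r15045 (adjusted p = 0.0107, exact permutation test). None of the 9 passed over all animals and both methods. The sense spacer RNA with 28S gave r = −0.40 (0.57 in Method BL alone, −0.65 in Method QE alone), and with the antisense spacer RNA r = 0.12 (0.91 in Method BL alone, −0.17 in Method QE alone). Both Method BL values include the library of r15045, which held the highest level of 28S and of both spacer rows. The Method BL relations were not run without that library, so no difference between the methods is read from them. 12S with 16S gave r = 0.54, and the sum of both with the 13 mitochondrial protein genes r = 0.67. All are shares of the same libraries and so not independent measures.

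The genes known to make and process rRNA were read beside the 2.14% of all rows called between the methods and the 18% (2552 of 14165) at an unadjusted p under 0.05. The RNA polymerase I list held 20 names, some of them older symbols of other genes on it, and 17 were in the table and tested. Of these, 0 were called in either direction by edgeR (5 unadjusted, 1 by DESeq2, 0 by limma-voom). Their median log2 fold change was 0.03, against 0.0036 over all genes. POLR1B, the second largest subunit of that polymerase, had 79.1 ± 12.8 CPM with Method BL and 84.0 ± 11.9 with Method QE (SD, n = 8). CAVIN1, also known as the polymerase I and transcript release factor, had 251 ± 31.0 and 285 ± 32.1 CPM. For processing of the precursor, 85 of 89 genes were tested, 0 were called by edgeR (14 unadjusted, 2 by DESeq2, 0 by limma-voom) and the median was 0.02. In that list NCL, the nucleolar protein nucleolin, had 105 ± 10.2 and 126 ± 18.6 CPM, and SNU13, a protein of box C/D small nucleolar particles, 110 ± 31.8 and 108 ± 26.5.

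The list for 5S rRNA held the 1 gene of these lists that was called by edgeR. Of its 26 genes 23 were tested, with a median of 0.09 and 6 unadjusted, and 1 was called by each of edgeR, DESeq2 and limma-voom. RPL5, which binds 5S rRNA on its way into the large subunit, rose from 88.3 ± 13.01 CPM with Method BL to 112 ± 14.4 with Method QE (log2 fold change 0.35, SE 0.06, adjusted p = 0.0157 by edgeR), higher in 8 of 8 animals. GTF3C1, a subunit of the RNA polymerase III factor TFIIIC, had 72.5 ± 4.55 and 77.5 ± 10.2 CPM. For mitochondrial rRNA 36 of 40 listed names, which also include an older symbol, were tested, 0 were called by edgeR (6 unadjusted, 0 by DESeq2 or limma-voom) and the median was 0.04. There LRPPRC, a binder of mitochondrial RNA, had 150 ± 30.5 and 161 ± 21.4 CPM and GRSF1, a protein of mitochondrial RNA granules, 98.5 ± 30.2 and 105 ± 19.2.

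As a description, the 5 rows whose log2 CPM followed a member most closely over the 16 libraries were listed for 4 members. These libraries share animals and methods. For 28S they were HBA, an alpha chain of haemoglobin (r = 0.89), HP1BP3, KLF2, PHF1 and ENSMMUG00000057048 (r = 0.84). For 5.8S they were ATG14 (r = 0.87), RBL2, ENSMMUG00000059423, USP1 and RPL17 (r = 0.80). For 12S they were NUCKS1 (r = 0.86), DYNLL2, C13H2orf49, MYCT1 and SDHD, a subunit of succinate dehydrogenase (r = 0.85).

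The sense spacer RNA was followed by ENSMMUG00000050133 (r = 0.91), LUC7L, mml-mir-663-1, ENSMMUG00000059497 and ENSMMUG00000056783 (r = 0.85), all 5 of them called lower with Method QE by edgeR. The likeness was taken over both methods, so a shared difference between the methods raises it. Of these, mml-mir-663-1 is a microRNA row in the same chromosome 20 region, upstream of 18S at chr20:29810527-29810616. It held 2.63, 3.85 and 10.3 CPM with Method BL and 0.512, 1.03 and 2.32 with Method QE, without overlap, and was lower in 8 of 8 animals (log2 fold change −1.93, SE 0.31). Of all rows tested, 0.127% had lower groups without overlap and 3.04% were lower in all 8 animals. Its counts were low, 65 to 147 per library with Method BL and 13 to 43 with Method QE. Its highest Method BL library was again that of animal r15045. The plus-strand row around it, ENSMMUG00000055690, went the other way (log2 fold change 0.93, SE 0.73).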

How the data were processed

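Total RNA libraries (Illumina Stranded Total RNA, ligation) were aligned by the authors with STAR 2.7.8a to Mmul_10 and quantified in Partek against Ensembl transcripts. The deposited table holds estimated counts per gene made by the authors with the Partek E/M algorithm; an estimated count divides reads that match several rows; 76.7% of values were whole within 1e-06. Use of strand in the counting is not given in the sources used here. An entry broken over 3 lines was joined.

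Counts were rounded, filtered (filterByExpr) and fitted with edgeR 4.0.16 (TMM, quasi-likelihood F test, animal and method as terms, Benjamini-Hochberg over 14165 rows, threshold 0.05). Animals were paired by the animal number in the library names, since each gave 1 library per method; the labels' replicate numbers do not pair them. CPM were TMM-scaled, and log2 CPM used a prior count of 2. Correlations were tested over all 40320 pairings of animals. The fit was tested on simulated data. Copies were searched with BLAST+ 2.17.0 in the Mmul_10 reference. Named genes were the members, called genes and the 2 most abundant of each pathway list, and the 5 rows most like each of 4 members. Members and lists were chosen with earlier results of these data known. Nothing in the labels says that the 8 libraries of a method were separate extraction runs, so p-values measure the spread between these libraries. Alternatives were other scalings, DESeq2 1.42.0, limma-voom 3.58.1, other filters, no animal term, single methods, animals left out and the name endings B or R.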

Additional observations from a re-analysis of the deposited data

Results flagged for a closer look

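In 3 of 26 groups of 8 libraries the highest library stood apart from the others by Dixon's test, where chance flags about 1 in 20 groups, and all 3 were the Method BL library of animal r15045. Its log2 CPM of the sense spacer RNA was 11.7541, where the next library had 10.33. Its log2 CPM of the antisense spacer RNA was 5.0278, where the next had 4.04. Its log2 ratio of 28S to 18S counts was 4.9710, where the next had 3.23. Neither value of the spacers stood apart in the Method QE library of the same animal, which held 242 CPM of the sense and 3.18 CPM of the antisense spacer RNA. In the paper's sequencing overview, the Method BL library of r15045 had the lowest printed mapped share and the highest intergenic share of all libraries. Several other Method BL mapped shares there do not match the mapped reads printed beside them. The part of mapping, RNA quality or depletion in these values was not tested.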

How the results depend on the processing

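The sense spacer RNA stayed lower with Method QE under every alternative run, with log2 fold changes from −3.29 to −2.76, and 5.8S stayed higher (1.19 to 2.14). Between methods 303 genes were called by edgeR; without the replicate block for animal there were 5, with library totals 709 (7 higher and 702 lower, against 121 and 182), with DESeq2 583, in the 5 animals with names in B 49, in the 3 with names in R 0 (870 at an unadjusted p under 0.05), and on leaving out 1 animal 37 to 355. Library totals alone moved the median of all genes to −0.24 on the log2 scale. Between animals 4461 genes were called, 2331 with library totals. Of the 8 rows, which were chosen on this contrast, 2 passed between methods, and as a description 3 did with library totals (the antisense spacer RNA added), 1 without the block and in the B animals, 0 in the R animals, and 1 to 2 on leaving out 1 animal; between animals 5 were called, or 3 to 5 on leaving out 1. Of the 9 relations 0 passed, or 1 in the Method QE libraries, and 0 to 1 on leaving out 1 animal. The cause of these changes was not tested, beyond the smaller number of samples in the subsets.

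Values near 0 changed sign. The log2 fold change of 18S was 0.10 without the block and 0.20 in the B animals. That of 12S was −0.071 with library totals and −0.12 in the R animals. That of 16S was 0.22 in the B animals and −0.22 to 0.078 on leaving out 1 animal. Agreement between methods for 5S was −0.068 with a prior count of 0.5, −0.38 without the 2 farthest animals and −0.36 to 0.33 on leaving out 1, and for the sense spacer RNA −0.17 without the 2 farthest. The relation of 5S with 28S was −0.015 without the 2 farthest animals and −0.27 to 0.37 on leaving out 1, that of the sense spacer RNA with 28S 0.57 in Method BL, and that of the sense with the antisense spacer RNA −0.17 in Method QE, −0.070 without the 2 farthest and −0.14 to 0.23 on leaving out 1. The Method BL value includes the library of r15045, which held the highest level of both 28S and the sense spacer RNA.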
